A study of Mus musculus with 4 samples.

Results

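The genes examined encode 6 ligands of the tumor necrosis factor (TNF) superfamily: Cd40lg, Tnfsf11, Tnfsf8, Fasl, Tnf and Ltb. They were taken by name from a table of 14721 genes, and all 6 members had UMIs (unique molecular identifiers, 1 per captured message) in both libraries. The study measured RNA and antigen receptors in single T cells of mice carrying B16F10 melanoma, a transplantable skin tumor line. The strain is given as RAG1- BW TRP-1 TCR, a source of CD4+ T cells whose transgenic receptor sees TRP1, a protein of pigment cells. Those cells were injected 1 day after cyclophosphamide was given at 250 mg/kg, and tumors were taken 11 days after transfer and sorted for CD4+ and for CD4+CD8+ T cells. The same labels describe the treatment as untreated, and both tissues carry the same strain, source and sort. There was 1 tumor RNA library (5570 cells) and 1 lymph node RNA library (4988 cells).

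The TNF superfamily consists of trimeric ligands, mostly anchored in the cell membrane, that bind receptors on a neighbouring cell. The receptors recruit TRAF adaptors that activate NF-kB, or, where they carry a death domain, start apoptosis. CD40 ligand (Cd40lg) is the hallmark of helper T cells, licensing B cells and dendritic cells, while RANK ligand (Tnfsf11) and CD30 ligand (Tnfsf8) are further signals of activated T cells. Fas ligand (Fasl) and TNF are effector molecules shared by helper and cytotoxic T cells, and lymphotoxin beta (Ltb) anchors the secreted lymphotoxin alpha (Lta) to the membrane.

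The authors' cell labels were used as deposited. Tumor cells were labelled Cd4 (2451 cells), Tdp (2693) or Tcell (406), and lymph node cells Cd4 (1873), Cd8 (2788) or Treg (321). Smaller groups were not compared. The sources used here do not spell out the label Tdp; most such cells had both Cd8a or Cd8b1 and Cd4 UMIs (2028 of 2693). Median depth was 6633 UMIs per cell in tumor Tdp, 5533 in tumor Cd4 and 2040 in tumor Tcell cells, and 4763 to 6306 in the 3 lymph node groups. The lymph node library went against its labelled sort: 55.2% of its cells had Cd8a or Cd8b1 without Cd4 UMIs. The chains of the commonest receptor call in tumor cells were taken as the transgenic receptor. All 5540 called tumor receptors carried at least 1 of these chains, and none of the 4769 called lymph node receptors did. Tissue and origin of the cells therefore cannot be told apart. Each of 6 T cell markers reached 20 CPM in all 6 groups. The libraries shared 36 cell barcodes, and leaving these cells out kept all 72 member ratios computed within their counting intervals. With 1 RNA library per tissue there was no replicate and no test; levels are UMIs scaled to a common total of 1e6 (CPM) summed over cells, and 95% intervals cover counting error only.

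In the mouse reference GRCm38.p6 of RefSeq, Cd40lg lies on chromosome X (57212143 to 57224042), Tnfsf11 on chromosome 14 (78277446 to 78308043), Tnfsf8 on chromosome 4 (63831202 to 63861508) and Fasl on chromosome 1 (161780691 to 161788495). Ltb (35194507 to 35196305) and Tnf (35199367 to 35202007) are neighbours on chromosome 17, 3061 bases apart, and Lta (35203165 to 35205578) follows 1157 bases beyond Tnf. The 250 bases upstream of the annotated start are shown for Tnfsf11, which differed most between tumor Tdp and Cd4 cells, and for Fasl and Tnf, which stayed within 2-fold. They are chr14:78308044-78308293, chr1:161788496-161788745 and chr17:35202008-35202257, all on the minus strand, written 5′ to 3′. Capitals mark GGAAA, the core bound by NFAT factors, on either strand.
Tnfsf11: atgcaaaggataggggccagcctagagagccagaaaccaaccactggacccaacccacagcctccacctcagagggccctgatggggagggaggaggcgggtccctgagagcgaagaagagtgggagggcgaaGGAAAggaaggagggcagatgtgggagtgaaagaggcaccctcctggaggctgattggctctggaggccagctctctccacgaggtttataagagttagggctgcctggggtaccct
Fasl: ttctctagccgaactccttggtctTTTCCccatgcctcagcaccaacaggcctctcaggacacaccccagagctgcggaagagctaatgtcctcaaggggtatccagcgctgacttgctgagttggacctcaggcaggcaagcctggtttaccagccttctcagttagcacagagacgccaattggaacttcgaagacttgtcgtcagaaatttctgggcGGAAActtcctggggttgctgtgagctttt
Tnf: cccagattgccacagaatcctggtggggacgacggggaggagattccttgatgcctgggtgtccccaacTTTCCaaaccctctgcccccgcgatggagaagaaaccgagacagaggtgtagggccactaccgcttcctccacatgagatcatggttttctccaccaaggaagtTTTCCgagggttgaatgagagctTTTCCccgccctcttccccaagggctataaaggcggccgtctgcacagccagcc
GGAAA occurred 1 time upstream of Tnfsf11, 2 times upstream of Fasl and 3 times upstream of Tnf, and it was present in 55.7% of 32536 upstream windows of this length. TGANTCA, the AP-1 element (6.73% of windows), TGTGGT, the RUNX element (14.0%), and an NF-kB motif (5.03%) had no match in these 3 windows. The Ltb window held 1 GGAAA and 1 NF-kB match, which overlap. A match is a description of letters only.

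The 6 ligands fell into different patterns over the labelled groups. Cd40lg stood at 162 CPM in tumor Cd4, 49.8 in tumor Tcell and 6.85 in tumor Tdp cells, and at 121 in lymph node Cd4, 31.5 in Treg and 15.0 in Cd8 cells. Both Cd4 groups were highest, and only the neighbours tumor Tcell and lymph node Treg had overlapping intervals. Tnfsf11 stood at 122 CPM in tumor Cd4, 27.3 in tumor Tcell and 3.07 in tumor Tdp cells, against 8.56 in lymph node Cd4, 12.5 in Cd8 and 18.4 in Treg cells. Its tumor Cd4 level lay far above those of the other 5 groups. Tnfsf8 stood at 53.2 CPM in tumor Cd4, 22.5 in tumor Tcell and 4.17 in tumor Tdp cells, against 54.5 in lymph node Cd4, 72.9 in Cd8 and 72.5 in Treg cells. Tumor Tdp cells were lowest for all 3 of these genes, and for Tnfsf8 the highest levels, with overlapping intervals, were those of lymph node Cd8 and Treg cells.

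The other 3 ligands stayed within 2-fold between tumor Tdp and Cd4 cells, though Tnf was lowest in Tdp cells among the tumor groups. Fasl stood at 187 CPM in tumor Tdp, 175 in tumor Cd4 and 149 in tumor Tcell cells, against 24.3, 11.1 and 13.7 in lymph node Cd4, Cd8 and Treg cells. Tnf stood at 225 CPM in tumor Cd4, 202 in tumor Tcell and 141 in tumor Tdp cells, against 32.1, 30.7 and 39.9 in lymph node Cd4, Cd8 and Treg cells. Every tumor group was above every lymph node group for both genes. Ltb varied least: it stood at 914, 520 and 682 CPM in tumor Cd4, Tcell and Tdp cells and at 789, 665 and 1049 in lymph node Cd4, Cd8 and Treg cells.

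**Figure D1:**
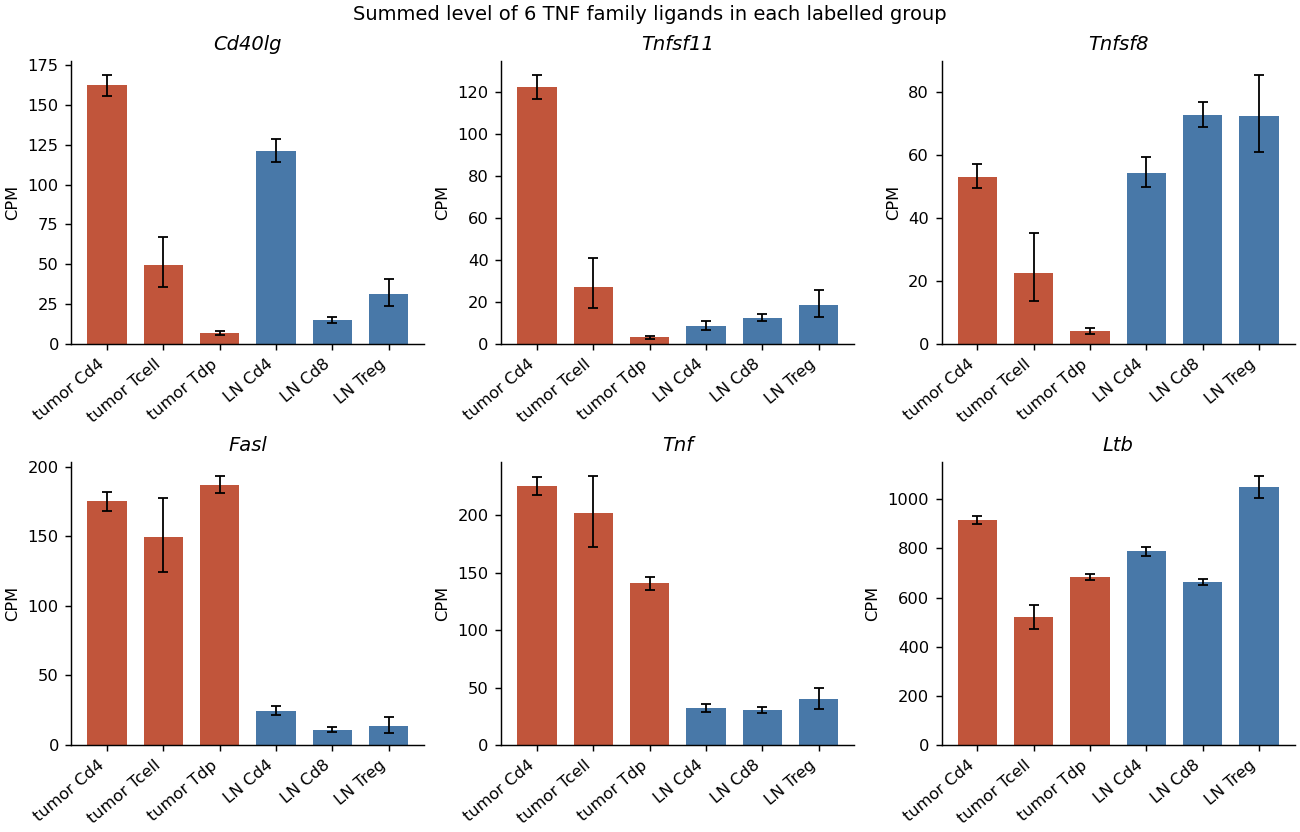
CPM of each ligand (vertical axes, linear from 0) in 3 tumor groups (red) and 3 lymph node groups (blue, LN); bars are sums over the cells of a group and whiskers exact Poisson 95% intervals. Cd40lg falls from 162 CPM in tumor Cd4 to 6.85 in tumor Tdp cells, whereas Fasl is at 175 and 187 CPM.

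Tumor Tdp cells were first set against tumor Cd4 cells, a comparison of labels. A Cd8a or Cd8b1 UMI was held by 2582 of the 2693 Tdp-labelled and 251 of the 2451 Cd4-labelled cells. Genes were counted where either group reached 20 CPM, and called at 2-fold on the log2 scale of CPM plus 1. Of the 6 members 3 were called lower and 0 higher, where 2.3% of 4820 genes were lower, and the median of all genes was -0.11. Tnfsf11 had the lowest ratio of all genes counted, 39.8-fold lower in Tdp cells (95% interval 30.5 to 52.9), Cd40lg ranked 3 from the lowest (23.7-fold, 19.8 to 28.6) and Tnfsf8 ranked 12 (12.8-fold, 10.1 to 16.4). These 3 genes were named with earlier results of these data known, so the ranks describe and do not test them. Tnf was at 0.625 times its tumor Cd4 level (0.593 to 0.658), Ltb at 0.746 times (0.728 to 0.765) and Fasl at 1.07 times (1.02 to 1.13). Among the tumor library's UMIs, tumor Tdp cells held 55.0% of all but 3.14% of the Tnfsf11, 5.14% of the Cd40lg and 9.07% of the Tnfsf8 UMIs. Of Fasl UMIs they held 57.0%.

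Between tumor Tdp and Cd4 cells, Lta, the partner of Ltb, followed the first 3 ligands and not its neighbours on chromosome 17. It stood at 3.18 CPM in tumor Tdp and 28.0 in tumor Cd4 cells (8.81-fold lower, 6.67 to 11.8), whereas the neighbouring Tnf and Ltb stayed within 2-fold. In lymph node Cd4, Cd8 and Treg cells Lta stood at 20.5, 12.9 and 69.9 CPM, highest in Treg cells as was Ltb.

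Detection per cell gave the same split. A Cd40lg UMI was seen in 48.6% of tumor Cd4 cells and 2.82% of tumor Tdp cells, and after thinning every cell to 2000 UMIs in 23.8% (22.1% to 25.5%) and 1.01% (0.669% to 1.47%). Lymph node Cd8 cells, which would be taken to lack this gene, had it in 4.56% at a median of 6306 UMIs, so the share over all Tdp cells, at a median of 6633, did not exceed that in a group meant to lack the gene. Neither group was uniform, and both are split by coreceptor UMIs further on. Thinned shares in tumor Cd4 and Tdp cells were 14.9% and 0.451% for Tnfsf11, and 8.02% and 0.601% for Tnfsf8. They were 30.8% and 22.2% for Tnf, 75.3% and 67.5% for Ltb, and 28.0% and 29.0% for Fasl, the only member whose thinned intervals overlapped. Thinning left out 192 of 406 Tcell cells, 33 tumor Cd4 and 30 tumor Tdp cells. A tumor Cd4 cell with Tnfsf11 held 2.66 UMIs of it on average and up to 19, so that 26.2% of the cells carried all of its UMIs in that group. At 2000 UMIs, 38.8% of tumor Cd4 cells (36.8% to 40.7%) had at least 1 of Cd40lg, Tnfsf11 and Tnfsf8, against 2.03% of tumor Tdp cells (1.53% to 2.64%). At least 1 of Fasl, Tnf and Ltb was seen in 86.6% and 80.7%.

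**Figure D2:**
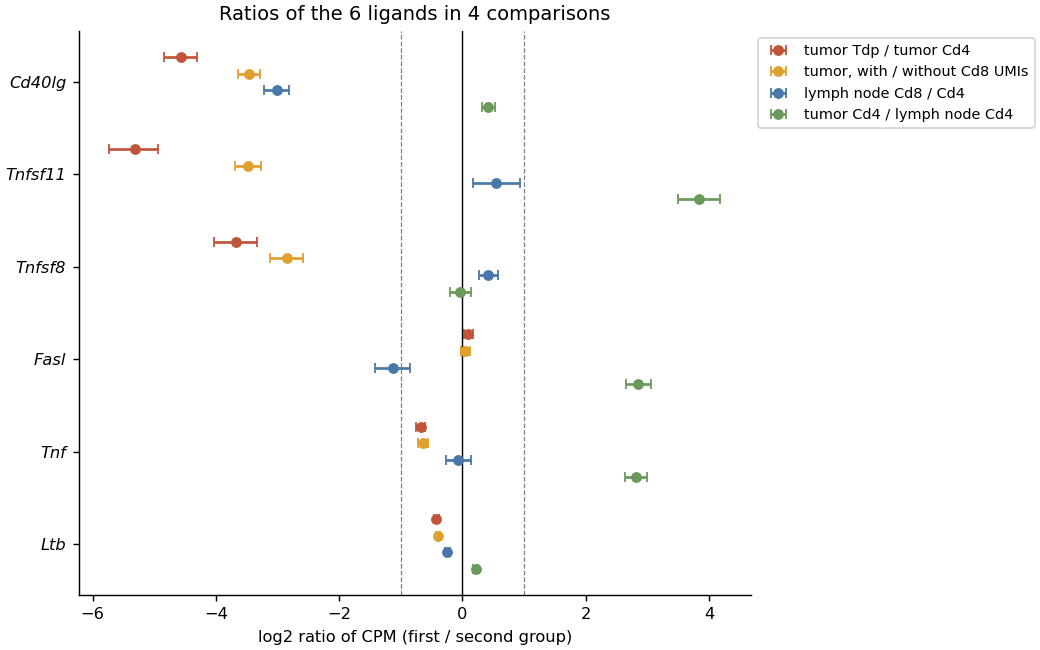
Log2 ratio of CPM (horizontal axis) for each ligand in 4 comparisons; points are plain ratios without the added 1, whiskers exact conditional 95% intervals for counting error, and dashed lines mark 2-fold. Tnfsf11, Cd40lg and Tnfsf8 lie left of the line for tumor Tdp over tumor Cd4 cells, and Fasl, at 1.07-fold, lies beside 0.

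Tumor cells were also compared by coreceptor UMIs in place of labels. Tumor cells with at least 1 Cd8a or Cd8b1 UMI (3028 cells) had 14.6 CPM of Cd40lg against 161 in those without (2542 cells), 11.0-fold lower (9.74 to 12.5). Tnfsf11 stood at 10.6 against 118 CPM and Tnfsf8 at 7.22 against 52.1. Again 3 of the 6 members were called lower, against 2.02% of 4802 genes. Tnf stood at 145 against 226 CPM, Ltb at 691 against 907 and Fasl at 183 against 177. With Cd8a alone as the criterion, the log2 ratios of Cd40lg, Tnfsf11 and Tnfsf8 went from -3.38, -3.36 and -2.69 to -4.53, -4.43 and -3.10.

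Over all labels and on all UMIs, levels of the first 3 ligands were lower in tumor cells with more Cd8 UMIs. Cd40lg stood at 161, 130 and 88.3 CPM in tumor cells with 0, 1 and 2 Cd8a plus Cd8b1 UMIs, and at 7.48, 6.22 and 4.21 in cells with 3 to 5, 6 to 10 and above 10. Tnfsf11 stood at 118, 92.2 and 63.7 CPM and then 11.8, 3.22 and 2.95 over the same bins. Where the levels dropped depended on depth: with every cell thinned to 2000 UMIs, Cd40lg stood at 143, 38.9, 8.40 and 2.83 CPM and Tnfsf11 at 100.2, 21.4, 4.2 and 1.62 with 0, 1, 2 and 3 to 5 Cd8 UMIs. Thinned Tnfsf8 stood at 49.7, 12.1, 5.25 and 1.62 CPM in these bins. At 6 to 10 thinned Cd8 UMIs, Tnfsf11 was 3.69 and Tnfsf8 5.54 CPM (4 and 6 UMIs). These did not fall further, with intervals overlapping those at 3 to 5, and Cd40lg had 0 UMIs. On all UMIs, as for every value that follows here, Tnfsf8 stood at 52.1, 40.2 and 16.4 CPM and then 9.98, 6.22 and 3.54. Fasl stayed between 177 and 212 CPM over all bins, and Tnf was at 225 with 1 UMI and 123 with 3 to 5. Within Cd4-labelled cells, Cd40lg was 168, 156 and 171 CPM at 0, 1 and 2 Cd8 UMIs, and 66.3 at 6 to 10 (34 cells). Within Tdp-labelled cells, Cd40lg was 80.8, 52.7, 31.1 and 3.06 CPM at 0, 1, 2 and 3 to 5, and Tnfsf11 10.1, 10.5, 5.18 and 4.59, so the mix of labels differs between the bins. Tnfsf8 within Tdp-labelled cells showed no fall from 0 to 2 Cd8 UMIs. It was 6.74, 15.8 and 20.7 CPM at 0, 1 and 2 (4, 3 and 4 UMIs), and 8.42 at 3 to 5.

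**Figure D3:**
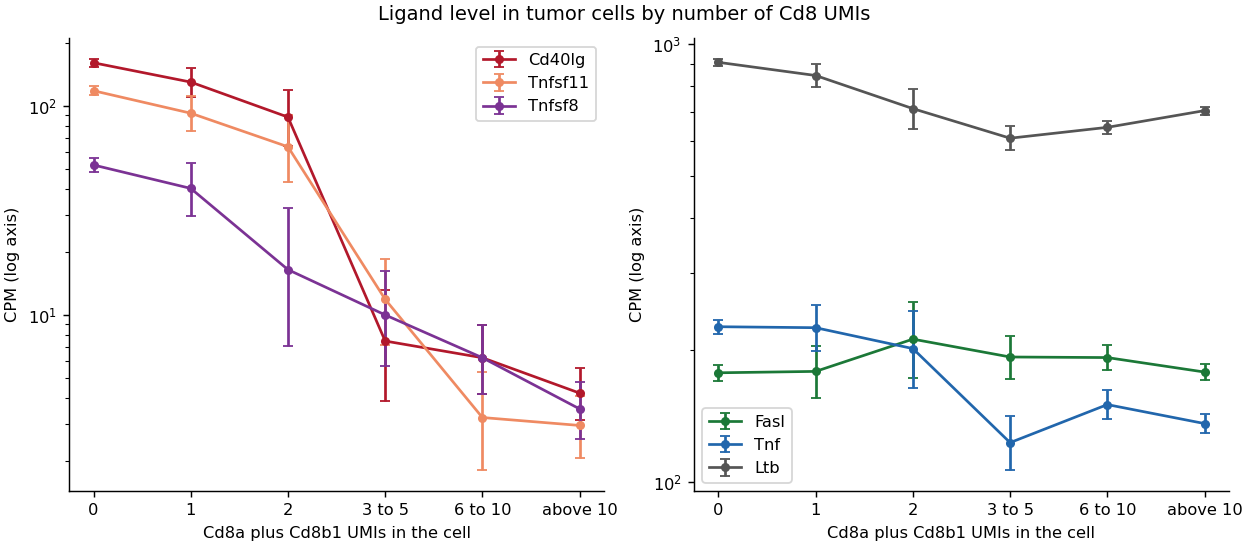
CPM (log axis) in tumor cells of any label by the number of Cd8a plus Cd8b1 UMIs in the cell, with exact Poisson 95% intervals; left, Cd40lg, Tnfsf11 and Tnfsf8; right, Fasl, Tnf and Ltb. Cd40lg goes from 88.3 CPM at 2 UMIs to 7.48 at 3 to 5, while Fasl stays between 177 and 212.

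Label and coreceptor UMIs were then crossed, which set Cd40lg apart from Tnfsf11 and Tnfsf8. Among Tdp-labelled cells, the 111 without a Cd8a or Cd8b1 UMI had Cd40lg at 80.8 CPM (59.6 to 107), against 4.36 (3.44 to 5.45) in the 2582 with one. The 2 intervals are far apart, and 26.1% of the former had a Cd40lg UMI. Tnfsf11 was also lower in the 2582 cells, at 2.83 against 10.1 CPM (0.280 times, 0.120 to 0.800). Tnfsf8 was at 4.08 against 6.74 CPM (0.606 times, 0.227 to 2.28). In the same 111 cells Tnfsf11 stood at 10.1 CPM (3.71 to 22.0, 6 UMIs) and Tnfsf8 at 6.74 (1.84 to 17.2, 4 UMIs), against 126 and 55.0 in the 2200 Cd4-labelled cells without Cd8 UMIs. Relative to those Cd4-labelled cells, Cd40lg was 2.07-fold lower (1.56 to 2.82), Tnfsf11 12.5-fold lower (5.72 to 34.1) and Tnfsf8 8.16-fold lower (lower bound 3.17). The Cd40lg interval lies below both others. Fasl in these cells was 263 CPM, 1.49-fold higher (1.26 to 1.76), and Tnf was 210, inside counting error of 227.

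In Cd4-labelled cells a Cd8a or Cd8b1 UMI went with lower levels of these 3 genes, within 2-fold. The 251 cells that had one stood at 0.734 (Cd40lg), 0.747 (Tnfsf11) and 0.739 (Tnfsf8) times the level of the 2200 without. Their intervals lay below 1, at 0.633 to 0.846, 0.631 to 0.879 and 0.568 to 0.948. The 3 genes ranked 150, 183 and 167 from the lowest of 4890 genes counted. With 2 or more Cd8 UMIs against 0, their log2 ratios were -0.9956, -0.9050 and -0.7548. Splitting by Cd8a alone gave -1.30 for Cd40lg, -1.14 for Tnfsf11 and -0.53 for Tnfsf8, so Cd40lg and Tnfsf11 then passed 2-fold. Among the 251 cells, the 69 with Cd8a had lower levels, 66.9 CPM of Cd40lg and 56.3 of Tnfsf11, and a median of 8120 UMIs. The part of cell doublets in these values was not tested. Tcell-labelled cells, with a median of 2040 UMIs, showed the split without either label. Those without Cd8 UMIs (214 cells) had 95.9 CPM of Cd40lg, 56.5 of Tnfsf11 and 41.8 of Tnfsf8. Those with Cd8 UMIs (192 cells) had 6.88 and 4.59 CPM of Cd40lg and Tnfsf8 (3 and 2 UMIs) and no Tnfsf11 UMI, which by the limit of 3 counts allows up to 1.56% of cells with one. Among Tdp cells with Cd8 UMIs, a difference by Cd4 UMIs was not resolved at this depth: Cd40lg was 2.43 CPM in the 554 without and 4.80 in the 2028 with one (8 and 69 UMIs, ratio interval 0.210 to 1.05).

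**Figure D4:**
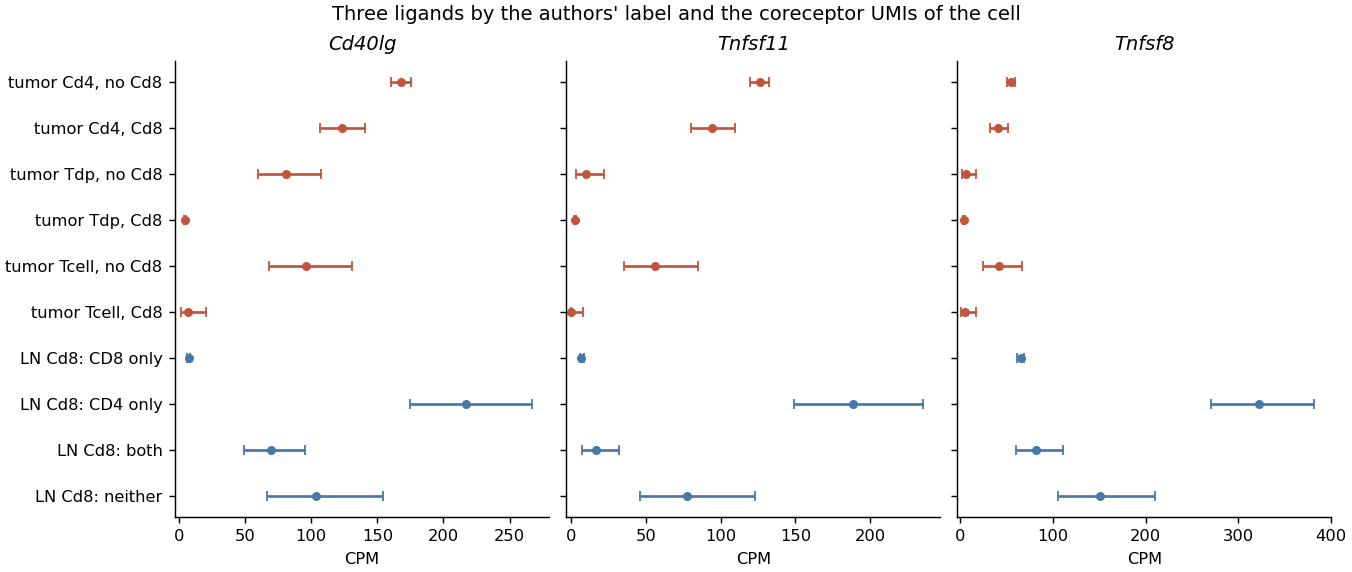
CPM (horizontal axes) of Cd40lg, Tnfsf11 and Tnfsf8 by the authors' label and the cell's coreceptor UMIs, with exact Poisson 95% intervals; Cd8 stands for a Cd8a or Cd8b1 UMI, and CD8 only, CD4 only, both and neither refer to UMIs within lymph node (LN) cells labelled Cd8. Tdp cells without Cd8 UMIs have 80.8 CPM of Cd40lg but 10.1 of Tnfsf11.

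Across tissues, tumor Cd4 cells had more of 3 members than lymph node Cd4 cells. Tnfsf11 was 14.3-fold higher (11.4 to 18.2), Fasl 7.19-fold (6.26 to 8.30) and Tnf 7.01-fold (6.21 to 7.93), where 14.8% of 5136 genes were called higher and the median of all genes was 0.20. Cd40lg was 1.34-fold higher, Ltb 1.16-fold, and Tnfsf8 stood at 0.977 times (0.870 to 1.10). Leaving receptor, mitochondrial and ribosomal genes out of the total turned Ltb to a log2 ratio of -0.10. Among receptors, Tnfrsf1b, the TNF receptor of activated lymphocytes, stood at 109 CPM in tumor against 14.7 in lymph node Cd4 cells, and Tnfrsf1a at 20.8 against 53.4. Between tumor Tdp and lymph node Cd8 cells, Fasl was 16.9-fold higher (14.6 to 19.6) and Tnf 4.59-fold higher in tumor, whereas Tnfsf8 was 17.5-fold lower (13.9 to 22.3). That comparison was chosen after the values were seen, and Ltb was at 1.03 times.

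Within the lymph node, Cd8 cells differed from Cd4 cells in fewer members. Of 5 members counted, 2 were called lower, where 1.43% of 4530 genes were: Cd40lg 8.08-fold (7.07 to 9.26) and Fasl 2.19-fold (1.80 to 2.67). The Fasl call was lost at a pseudocount of 10, at a minimum of 50 CPM and without cells holding markers of other cell types. Tnfsf8 was 1.34-fold higher in Cd8 cells (1.20 to 1.49), and Tnfsf11, below the 20 CPM minimum, was 1.46-fold higher (1.12 to 1.91). Among Cd8-labelled cells, however, the 71 with Cd4 and no Cd8 UMI had 189 CPM of Tnfsf11 (149 to 235), 322 of Tnfsf8 (270 to 381) and 217 of Cd40lg (175 to 267). The 2607 with Cd8 and no Cd4 UMI had 7.09, 65.3 and 7.09 CPM of these 3 genes. Set against Cd4-labelled cells with Cd4 and no Cd8 UMI, those 2607 cells had Tnfsf11 at 0.828 times (0.569 to 1.23), Tnfsf8 at 1.27 times (1.10 to 1.47) and Cd40lg 16.5-fold lower (13.5 to 20.3). The higher Tnfsf11 of the Cd8 label thus lay in cells without Cd8 UMIs; this class was chosen after the values were seen. Tumor Cd4, lymph node Cd4 and the other groups each enter several of these comparisons, so their ratios are not independent.

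Treg cells, suppressive T cells marked by Foxp3, had Cd40lg 3.85-fold lower than lymph node Cd4 cells (2.97 to 5.08), Lta 3.41-fold higher (2.71 to 4.29) and Ltb 1.33-fold higher (1.27 to 1.40). The median of all genes was 0.31 there, and TMM scaling took the Tnf ratio from 0.30 to -0.03. B cell genes summed to 215 to 545 CPM in the lymph node groups, most of it Ighm. Without the cells holding 2 or more UMIs of B cell, macrophage, dendritic or melanoma markers (188 of 321 Treg and 574 of 1873 Cd4 cells), the log2 ratio of Cd40lg went from -1.91 to -1.28, that of Tnfsf8 from 0.41 to 0.87, that of Tnfsf11 from 1.02 to 1.54 and that of Fasl from -0.79 to -0.001.

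Within tumor Cd4 cells, thinned to 2000 UMIs, the ligands differed in the genes seen in the same cell. Tnfsf11 and Tnfsf8 were less often seen where Gzmb (granzyme B, a cytotoxic protease) was seen: Tnfsf11 in 8.18% of 844 Gzmb cells (6.42% to 10.2%) and 18.5% of 1574 others, and Tnfsf8 in 2.37% (1.45% to 3.64%) and 11.1%. Cd40lg was seen in 23.9% and 23.7% of the same cells, and Fasl in 31.3% and 26.3%, with overlapping intervals. Tnfsf11 was seen in 28.4% of cells with Tnfsf8 and 13.7% without, and in 34.3% of 67 cells with Csf2, the cytokine GM-CSF, and 14.3% without. Tnf was seen in 35.7% of cells with Ifng and 27.9% without, and in 35.0% of cells with Nr4a1, an early gene of receptor signalling, and 26.3% without. Members paired with each other were counted in both directions. In all, 16 of 114 pairs of ligand and partner had intervals apart, none of them with Cd40lg as the ligand counted. In tumor Tdp cells 4 of 86 pairs did, among them Cd40lg, seen in 4.25% of 400 cells with Tnfrsf4 (OX40, a costimulatory receptor) and 0.442% of those without. Unlike the values in tumor Cd4 cells, the Cd40lg shares in tumor Tdp cells stood apart by Gzmb, at 0.772% of 2460 cells with it (0.466% to 1.20%) and 3.94% of 203 without (1.72% to 7.62%). These shares rest on 27 Tdp cells with Cd40lg, 19 of them with Gzmb. On all UMIs, Tdp cells without a Cd8 UMI held 48 of the label's 125 Cd40lg UMIs. Their part in the difference by Gzmb was not tested.

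**Figure D5:**
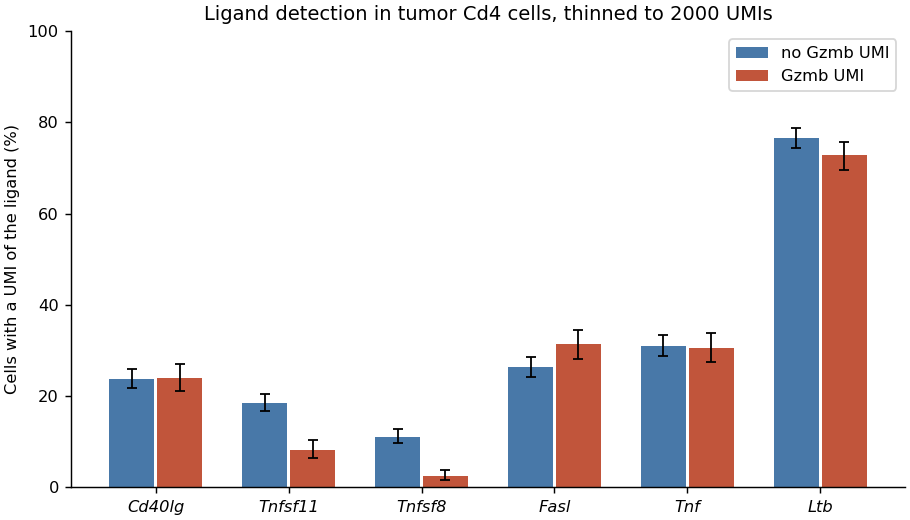
Share of tumor Cd4 cells with a UMI of each ligand (percent, from 0), for cells without (blue, 1574) and with (red, 844) a Gzmb UMI after thinning to 2000 UMIs; whiskers are exact Clopper-Pearson 95% intervals. Tnfsf11 and Tnfsf8 are lower in cells with Gzmb (8.18% and 2.37%), and Cd40lg is at 23.7% and 23.9%.

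The rest of the pathway differed less between tumor Tdp and Cd4 cells. Beside the counts below, 2.3% of all 4820 genes counted were called lower. Their median ratio was -0.11, so most genes had ratios below 0. Of 12 other ligands of the family 9 were in the table and 3 counted: Lta and Tnfsf9 (4-1BB ligand, 34.5 against 97.8 CPM) were called lower, and the apoptosis-inducing Tnfsf10 (TRAIL) stood at 32.6 against 19.0. Of 9 receptors of the members 3 were counted; Fas was called lower (15.2 against 32.1 CPM), while Tnfrsf1b (119 against 109) and Tnfrsf1a (30.6 against 20.8) stayed within 2-fold. Cd40, Tnfrsf11a and Ltbr, the receptors of Cd40lg, Tnfsf11 and lymphotoxin, had 0 UMIs in both groups. Of 24 signalling genes 20 were counted and 2 called lower, the NF-kB subunit gene Rel (118 against 243) and the adaptor gene Tank (16.4 against 34.1), and 17 had ratios below 0, with a median of -0.42 against -0.11 for all genes. Nfkbia (1495 against 2430 CPM), Tnfaip3 (327 against 431) and Traf1 (228 against 415), all of them targets of NF-kB, stayed within 2-fold. The calls of Fas, Rel and Tank were lost under TMM scaling. Of 23 regulators of ligand transcription, message stability and shedding, 22 were counted, 19 had ratios below 0 and 3 were called lower, with a median of -0.38. These were Zbtb7b, the CD4 lineage factor ThPOK (9.32 against 31.6 CPM), Maf (20.7 against 89.9) and Egr2 (11.4 against 27.9). Nr4a1 (415 against 554), Zfp36l2 (434 against 362) and Zfp36l1 (201 against 284) were the most abundant of those within 2-fold.

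Over 20 groups of library, label and coreceptor UMI class, the ligands paired by pattern as a description: Pearson r of log2 levels was 0.78 for Cd40lg with Tnfsf11, 0.74 for Tnfsf11 with Tnfsf8 and 0.87 for Fasl with Tnf, but -0.56 for Tnfsf8 with Fasl. The groups share 2 libraries and differ in depth. Among 6718 genes the nearest to Cd40lg were Cd9 (0.91), Rbm39 (0.88) and Ramp3 (0.84). Those of Tnfsf11 were Tbc1d4 (0.91), Cd247 (0.85) and Vsir (0.85), and those of Tnfsf8 were Timp2 (0.92), Tnfaip8 (0.92) and Lta (0.91). Fasl was nearest to Id2 (0.96), Serpinb9 (0.95) and Emp1 (0.95), Tnf to Sh3bgrl3 (0.97), Trac (0.97) and Trbc2 (0.96), and Ltb to Hnrnpa2b1 (0.90), Psme2 (0.89) and Nr4a1 (0.88).

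Markers of other cell types, natural killer genes apart, stayed low in the tumor groups. B cell genes summed to 25.6 CPM in tumor Cd4, 28.5 in tumor Tcell and 9.15 in tumor Tdp cells, mostly Ighm (24.8, 27.3 and 6.14), with Cd79a and Ms4a1 at 0. Melanoma genes summed to 0.548 to 1.19 CPM, and those of group 3 innate lymphoid cells, another source of Tnfsf11 and lymphotoxin, to at most 1.93. Dendritic cell genes summed to 0.788 CPM in tumor Cd4 and 19.8 in tumor Tdp cells. Nearly all of it was Itgax (0.716 and 19.6 CPM), with Flt3 at 0. Macrophage genes summed to 5.30 and 15.0 CPM in these groups, mostly Cd68 (3.08 and 13.0), with Adgre1 at 0. Natural killer genes summed to 2391 and 3742 CPM in tumor Cd4 and Tdp cells, nearly all of it Nkg7, which cytotoxic T cells also express. Of these 5 genes, 3 reached 20 CPM in Tdp cells, Nkg7 and Gzma among them, and 1 in Cd4 cells, with Ncr1 at 0. The part of these markers in the ligand values was not tested beyond one measurement. Leaving out cells with 2 or more UMIs of B cell, macrophage, dendritic or melanoma markers (137 Tdp and 70 Cd4 cells) kept the 3 calls between tumor Tdp and Cd4 cells.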

How the data were processed

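RNA of single T cells was measured with 10x Genomics 5′ chemistry, per the labels' protocols, in 1 tumor and 1 lymph node library, each with a matched receptor library. The build mm10 and Cell Ranger 3.1.0 are named in the submitters' processing notes. The authors deposited raw UMI counts of 14721 genes in 10558 cells, checked to be whole numbers, and a second deposited table with other values per cell: library, cell label, clonotype and receptor chains. The sources used here do not say how cells were labelled. Depth was 33147030 UMIs in tumor and 29067001 in lymph node, with 503 to 16976 per cell.

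Counts were summed per group and scaled to CPM, and 2 groups were set against each other as a log2 ratio after adding a pseudocount of 1 CPM. Genes counted had 20 CPM in either group; receptor segments and the coreceptor genes defining a comparison were left out. Intervals (95%) are exact Poisson for levels, exact conditional for ratios and Clopper-Pearson for shares. For shares, cells were thinned to 2000 UMIs. The ratio and interval code was tested on simulated data. No doublet caller was run; the 5% of cells with the most UMIs were left out as an alternative. Alternatives also covered TMM scaling (edgeR 4.0.16 in R 4.3.3), other totals, the CPM minimum and how Cd8 was called. Python 3.11.15, numpy 2.4.6, scipy 1.17.1 and pandas 2.3.3 were used.

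The members and gene lists were chosen with earlier results of these data known. Named genes were the 6 members; list members past 2-fold between tumor Tdp and Cd4 cells with up to 3 abundant others per list; and the 3 genes nearest each member in pattern. Comparisons of tumor Tdp with lymph node Cd8 cells, by UMI class in the lymph node, among cells without Cd8 UMIs and within Tcell cells were chosen after seeing the data.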

Additional observations from a re-analysis of the deposited data

Results flagged for a closer look

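For 3 members the ratio of the CD8-expressing to the Cd4 label went opposite ways in the tumor (Tdp over Cd4) and the lymph node (Cd8 over Cd4), with each counting interval on its own side of 1. Tnfsf11 had a log2 ratio of -4.92 in tumor and 0.49 in lymph node. With the lymph node labels narrowed to cells with Cd8 and no Cd4, and with Cd4 and no Cd8 UMIs, its lymph node value was -0.24. Tnfsf8 had -3.39 in tumor and 0.41 in lymph node, and 0.33 with the narrowed labels. Fasl had 0.10 in tumor and -1.07 in lymph node, and -1.52 with the narrowed labels. The tumor value of Fasl ran from 0.02 to 0.21 under alternatives, and its thinned shares had overlapping intervals. Its lymph node value ran from -1.11 to -0.70, so the 2-fold call was lost under some of them. The difference between tissues was not tested, since each tissue had 1 RNA library, and the labels compared are not the same in both.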

How the results depend on the processing

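Of 720 member ratios under alternatives, 636 stayed within the counting interval of the reported value, 84 moved beyond it, and 16 changed sign, none of them called at 2-fold as reported. Between tumor Tdp and Cd4 cells, log2 ratios ran from -5.21 to -3.34 for Tnfsf11, -4.64 to -3.35 for Cd40lg and -3.53 to -2.16 for Tnfsf8. Genes called lower there (111) were 335 with no CPM minimum and 61 at 50 CPM. At 50 CPM, 1 other ligand, 0 receptors, 1 signalling gene and 1 regulator were called lower in place of 2, 1, 2 and 3. Receptors and signalling genes called were 0 and 0 under TMM scaling and at a pseudocount of 10, and 1 signalling gene was called when CPM was averaged over cells and without cells holding other markers. By Cd8 UMIs, 97 genes lower became 62 at a pseudocount of 10, 278 with no minimum and 48 at 50 CPM. With Cd8a alone, 2 members were lower in Cd4-labelled cells in place of 0, and with no minimum 2 in Tdp-labelled cells in place of 1. At the reported settings, 0.0613% of 4890 genes were lower in the former comparison and 2.4% of 4909 in the latter. Genes higher in tumor than lymph node Cd4 cells (758) were 1477 with no minimum and 450 at 50 CPM. For lymph node Cd8 against Cd4 cells, 65 genes lower became 39, 184 and 29 at a pseudocount of 10, no minimum and 50 CPM. There 2 members lower became 1 at a pseudocount of 10, at 50 CPM and without cells holding other markers. With the narrowed labels 2 became 1 at a pseudocount of 10 and at 50 CPM. The share of all genes lower with the narrowed labels was 1.78% of 4542 at the reported settings. In Treg cells 1 member lower became 2 under TMM scaling and with the reduced total. There 0 higher became 1 with no minimum, without the cells with the most UMIs and without those holding other markers. Of 5188 genes counted there, 1.41% were lower and 10.6% higher at the reported settings. Between tumor Tdp and lymph node Cd8 cells 1 member lower became 3 with the reduced total and with no minimum. At the reported settings 5.13% of 4837 genes were lower in that comparison. The cause of these moves was not tested, beyond the number of genes that a minimum admits. No paired analysis was possible because each tissue had 1 RNA library, and for the same reason no replicate could be left out. Ratios resting on few UMIs, such as Tnfsf11 in Tdp cells without Cd8 UMIs (6), are limited by depth: at 2000 UMIs per cell no Tnfsf11 UMI was left there, and the log2 ratio of Tdp cells with over without Cd8 UMIs went from -1.53 to 1.82.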

Other observations

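Cells labelled Cd8 in the lymph node that held Cd4 and no Cd8 UMIs (71 cells) also stood out for Fasl, at 54.9 CPM (34.8 to 82.4) against 8.80 (7.44 to 10.3) in the 2607 cells with Cd8 and no Cd4 UMI. Tnf stood at 64.5 CPM (42.5 to 93.8) against 29.5, while Ltb stood at 699 (622 to 784) against 660 with overlapping intervals. Cells of that label with neither coreceptor (53 cells) lay between them for Tnfsf11 at 77.7 CPM, Tnfsf8 at 151 and Cd40lg at 104, and had Fasl at 69.1.

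At a depth of 2000 UMIs, 59.1% of tumor Cd4 cells and 34.5% of tumor Tdp cells showed 2 or more of the 6 ligands, and 24.1% and 4.92% showed 3 or more. Cd40lg, Tnfsf11 and Tnfsf8 were seen together in 14 of 2418 tumor Cd4 cells (0.579%, 0.317% to 0.970%), in 5 of 2762 lymph node Cd8 cells, in 1 of 1811 lymph node Cd4 cells and in 0 of 2663 tumor Tdp cells (3 counts, the limit that 0 allows, are 0.113%). All 6 members were seen in 1 tumor Cd4 cell. At least 1 of the 6 was seen in 91.8% of tumor Cd4, 81.0% of tumor Tdp, 87.1% of Treg, 83.6% of Cd4 cells in the lymph node and 75.7% of its Cd8 cells. The highest count of Tnf in a cell was 23 UMIs, in a tumor Tdp cell.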
